A study of Mus musculus with 18 samples.

Results

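Transforming growth factor beta (TGF-beta) signalling was followed in eosinophils of the mouse small intestine through 10 of its genes, picked by symbol from the 22708 genes of the deposited table. They encode a ligand (*Tgfb1*), the signalling receptors (*Tgfbr1* and *Tgfbr2*), the Smad proteins that carry the signal (*Smad2*, *Smad3* and *Smad4*), an inhibitory Smad (*Smad7*) and nuclear corepressors (*Ski*, *Skil* and *Tgif1*). All 10 were found, and all 10 had a mean high enough to be tested in every comparison. The RNA came from sorted cells and was sequenced in bulk in 18 samples from C57/BL6 mice. WT, *Ahr*-/- and *Ahrr*-/- labels each cover 6 samples, 3 from females and 3 from males. *Ahr* encodes the aryl hydrocarbon receptor (AHR), a transcription factor switched on by ligands, and *Ahrr* encodes its repressor. No treatment was given, and the labels state no age. Cells were taken by the gate CD11b+ MHC-II- SiglecF+ SSChi, and RNA below a set integrity was left out by the authors. The mice labelled *Ahr*-/- were neither littermates nor cagemates of the WT mice, so litter, housing and genotype cannot be told apart. The *Ahrr*-/- allele is not described in the sources used here. Samples are named F1 to F3 and M1 to M3 within a genotype.

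TGF-beta is secreted in a latent form and has to be released before it can bind. The active ligand brings type II and type I receptors together, the type I receptor phosphorylates Smad2 and Smad3, and these enter the nucleus with Smad4 to change transcription. Smad7 blocks the receptor, whereas Ski, SnoN (from *Skil*) and Tgif1 hold back transcription at Smad-bound genes. In the gut this pathway is known for restraining immune responses and for wound repair.

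Expression was deposited in variance-stabilized log2 units, in which 5.02 stands for no read and the differences of genes with few reads are flattened. Turned back into counts, they gave totals per sample between 3842977 (WT F3) and 12046933 (*Ahrr*-/- F3). The median total was lowest in WT, so values of low genes are least precise there. Differences below are on the deposited log2 scale with their standard error (SE), and a gene was called at a Benjamini-Hochberg adjusted p under 0.05 in limma, with sex in the model of each genotype comparison.

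The targeted genes were examined first. *Ahr* ran from 10766 to 21591 normalized counts in WT (median 13774), from 18084 to 26050 in the samples labelled *Ahr*-/- (median 23973) and from 8324 to 21894 in those labelled *Ahrr*-/- (median 11605). Its transcript was thus not lower where the label says knockout (difference 0.61, SE 0.189, adjusted p = 0.0557 in limma). AHR target genes went the other way. *Ahrr* itself, a classic target, lay between 819 and 1281 normalized counts in WT (median 1047) and between 0 and 9.43 in the samples labelled *Ahr*-/- (median 0.837). *Cyp1b1*, a monooxygenase gene induced by AHR, lay between 349 and 1134 in WT and between 0.758 and 4.71 in *Ahr*-/-. *Tiparp* and *Nqo1*, also AHR targets, were called lower there by differences of -2.60 and -1.82.

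In the samples labelled *Ahrr*-/-, *Ahrr* was not reduced. It ranged from 925 to 1888 normalized counts (median 1281), and limma gave a difference from WT of 0.28 (SE 0.179, adjusted p = 0.683). A count over the whole gene cannot check a deletion whose extent is not known. Both knockout groups are therefore named by their labels, and every direction given for them rests on those labels.

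Eosinophil genes were abundant in all samples. *Alox15*, a lipoxygenase gene and the most abundant of 10 eosinophil markers, had a median of 17260 normalized counts in WT, 24895 in *Ahr*-/- and 16388 in the samples labelled *Ahrr*-/-. *Siglecf*, *Ccr3*, *Il5ra* and *Itgam* were also high. Granule genes were not: *Epx*, for eosinophil peroxidase, had a median of 13.4 in WT, and *Ear6* was at 0 in 5 of the 6 WT samples. *Prg2*, for major basic protein, had a median of 66.0 in WT and 627 in *Ahr*-/-, and it was called (difference 2.30), as was *Alox15* (difference 0.58). T cell markers were close to absent, with a sum of 9 genes of at most 146.6 normalized counts in any sample.

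Markers of other cells were uneven among the samples labelled *Ahrr*-/-. The summed normalized count of 11 epithelial markers reached 35712 in F3, 56196 in M1 and 50595 in M3 of that group, against at most 21633 in any WT and 11741 in any *Ahr*-/- sample, and it was 24477 in M2. *Lyz1*, a lysozyme gene of Paneth cells, made up 35281 of the sum in M1. F3, M1 and M3 also had the highest sums of 8 fibroblast markers, at 951.7, 514.4 and 1668, against at most 231.3 in any WT or *Ahr*-/- sample. The sum of 6 B and plasma cell markers was 5437.6 in F2, 3694 in F3, 6044.9 in M1 and 4101.1 in M3. It was at most 1775.2 in any WT or *Ahr*-/- sample. F2 also had the highest sum of 8 neutrophil markers (4728.5, against at most 3218.9 in any other sample). F2 was kept in the alternative below that leaves out F3, M1 and M3. The eosinophil sum was lowest in F3 (32833) and M3 (23089) of this group, where other samples of the study lay between 39040 and 72722. In bulk RNA, fewer cells of a type and less RNA per cell cannot be told apart.

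**Figure D1:**
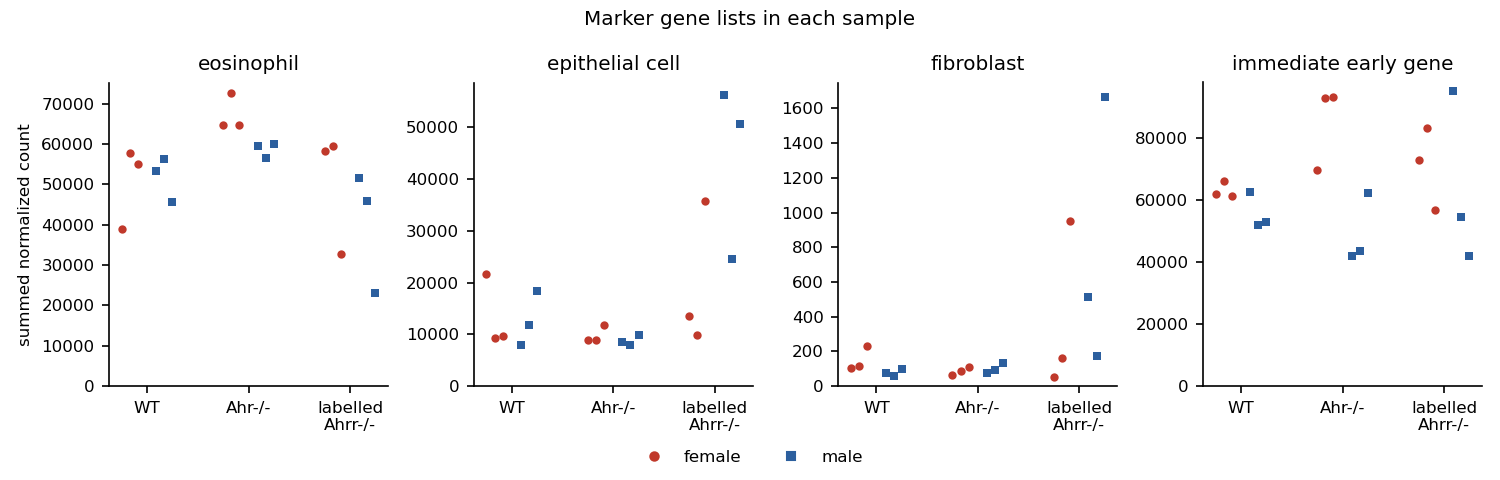
Summed normalized counts of marker lists by sample and genotype, with each point a sample, females as red circles, males as blue squares and a linear vertical axis for each list. The epithelial and fibroblast sums are highest in the samples F3, M1 and M3 labelled *Ahrr*-/-, and the eosinophil sum is lowest in F3 and M3.

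Among themselves the 10 genes differed widely in level. Per kilobase of exon, *Tgfbr1* was highest with a mean of 713 normalized counts over the 18 samples (SD 206), followed by *Skil* with 430 (SD 116) and *Ski* with 164 (SD 31.3). *Smad4* (141), *Tgfbr2* (128) and *Smad2* (98.5) came next. *Smad3* (71.4), *Tgif1* (62.4), *Tgfb1* (55.1) and *Smad7* (37.8) were lowest. Between neighbours in this order, the means from *Tgfbr1* to *Skil*, from *Skil* to *Ski* and from *Smad2* to *Smad3* lay further apart than the larger SD over the 18 samples. *Smad2* exceeded *Smad3* in 15 of the 18 samples, and in *Ahr*-/- the mean of *Smad3* (99.5) lay above that of *Smad2* (92.6), and that of *Tgfbr2* (165) above that of *Smad4* (142). In the samples labelled *Ahrr*-/-, *Tgif1* (74.3) and *Tgfb1* (62.4) lay above *Smad3* (54.6), and in WT *Smad2* (112.2) and *Tgfbr2* (112.1) were level. *Tgfb1* exceeded *Smad7* in each of the 18 samples. For the type I receptor gene *Tgfbr1* the lowest sample (436 per kilobase) exceeded the highest for the type II receptor gene *Tgfbr2* (202). *Tgfbr1* stood above 99.1% of all genes in the table by its mean deposited value, and *Smad7* above 74.0%.

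**Figure D2:**
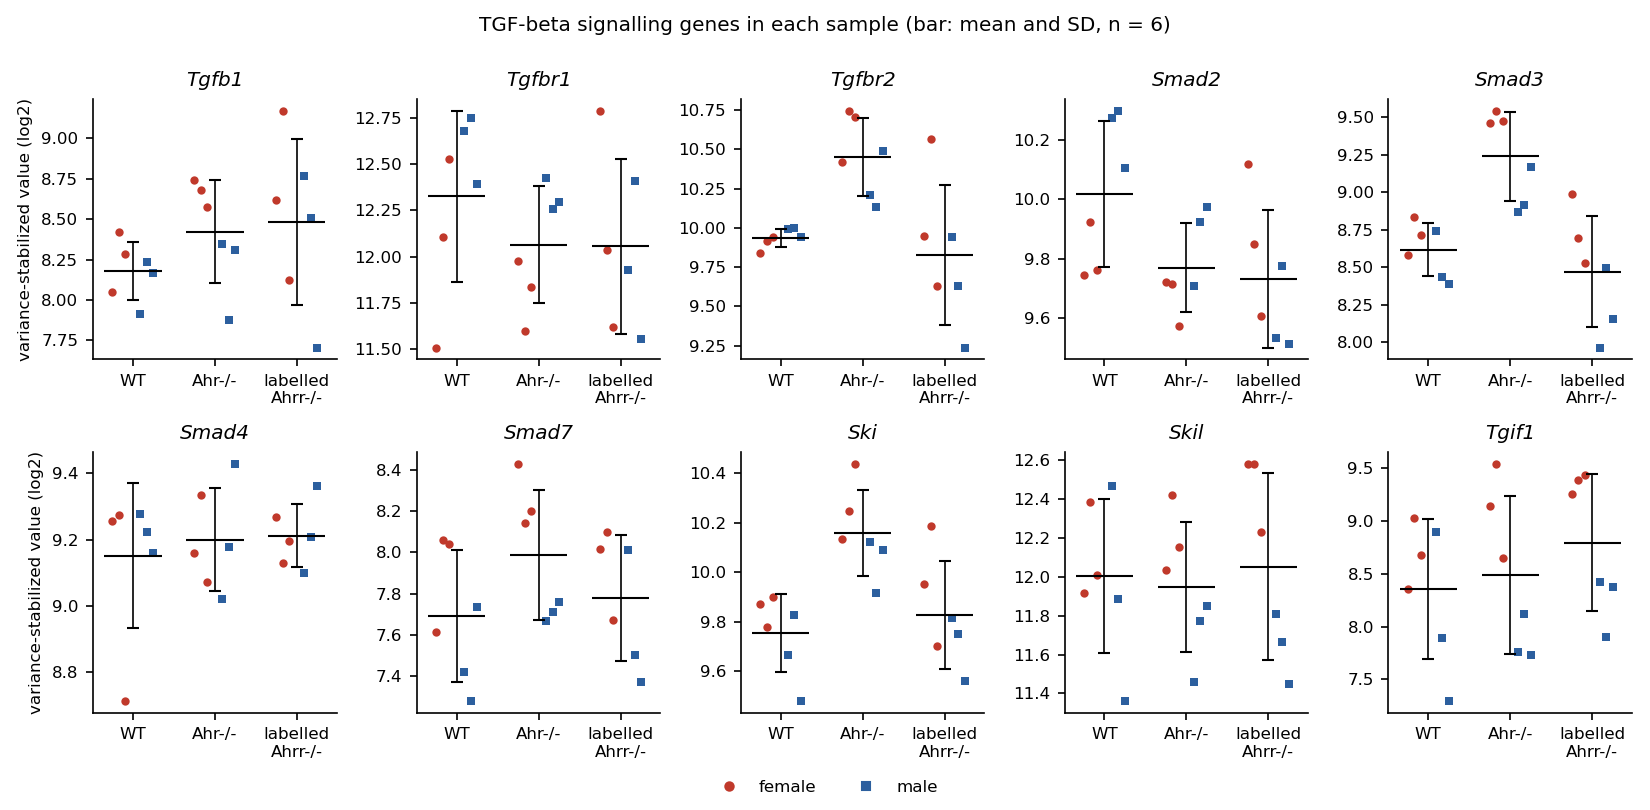
Deposited log2 values of the 10 TGF-beta genes in each of the 18 samples, by genotype and sex, with bars for the mean and SD of each genotype (n = 6). *Tgfbr2*, *Smad3* and *Ski* lie higher in every sample labelled *Ahr*-/- than in any WT sample, while the group labelled *Ahrr*-/- spreads widely.

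WT and *Ahr*-/- eosinophils were compared to see which of these genes depend on AHR genotype. Of the 10, *Tgfbr2*, *Smad3* and *Ski* rose in the samples labelled *Ahr*-/-, and none fell. That is 3 of 10 beside 1003 of the 11346 genes tested, or 8.84%, of which 585 were higher and 418 lower. The same 3 genes had no overlap between the 6 and 6 samples, which held for 4.51% of all genes tested. The median difference over the 10 was 0.19, against -0.0041 over all genes. Among 8 eosinophil genes tested, *Prg2* and *Alox15* were called, both higher in the same samples. All 8 had a difference above 0, with a median of 0.314, and 3 had no overlap between the groups. Of the other markers whose mean reached the minimum in both groups, 1 of 11 epithelial (*Muc2*, difference -1.12) and 1 of 2 endothelial genes (*Pecam1*, -0.63) were lower, 1 of 4 neutrophil genes was higher (*Cxcr2*, 0.65), and of 10 macrophage and dendritic cell genes *Csf1r* was higher (0.49) and *Cd68* lower (-0.49). The 11 epithelial genes had a median difference of -0.4537, with 7 below 0 and 4 above. The median total count was 9647589.5 in *Ahr*-/- against 6022409.5 in WT. Of 10 immediate early genes, which respond to handling, *Atf3* was called lower (difference -1.42) and *Nr4a1* higher (difference 0.92). The part of these in the result was not tested.

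The WT and the *Ahrr*-/- labelled samples gave a different picture. None of the 10 was called in limma (0 of 10, beside 9 of 11546 genes or 0.0779%), none had an unadjusted p under 0.05, where 853 genes in all did, and voom on the recovered counts also called 0. Groups without overlap were found for 0 of 10 and for 0.459% of all genes. The neutrophil genes *S100a8* (difference 2.06) and *S100a9* (difference 2.10) were among the 9 genes that rose. All 11 epithelial genes (median difference 0.5897) and all 10 immediate early genes (0.1994) lay above 0, with 0 called. Of 8 eosinophil genes, 0 were called, and 7 lay below 0 and 1 above (median -0.2118). What part these shifts have in the result was not tested.

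Set directly against each other, the samples labelled *Ahr*-/- were higher than those labelled *Ahrr*-/- in *Tgfbr2* and *Smad3*, 2 of 10 beside 1708 of 11474 genes or 14.9%. The share of the 10 was thus close to that of all genes. Groups overlapped for all 10, whereas 4.61% of all genes had none. Of the markers whose mean reached the minimum in both groups, 5 of 11 epithelial, 2 of 4 neutrophil, 2 of 11 macrophage and dendritic cell genes and 1 of 3 B and plasma cell genes (*Jchain*, difference -3.20) were lower, and 4 of 8 eosinophil genes higher, in *Ahr*-/-. Of the fibroblast and endothelial lists, 2 genes each reached it and 0 of them were called in limma. Of the 10 immediate early genes, *Atf3* was lower (difference -1.88) and *Nr4a1* higher (0.70) in *Ahr*-/-. The part of these genes in these calls was not tested. Since this comparison and that of WT with *Ahr*-/- use the same *Ahr*-/- samples, they are not independent.

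**Figure D3:**
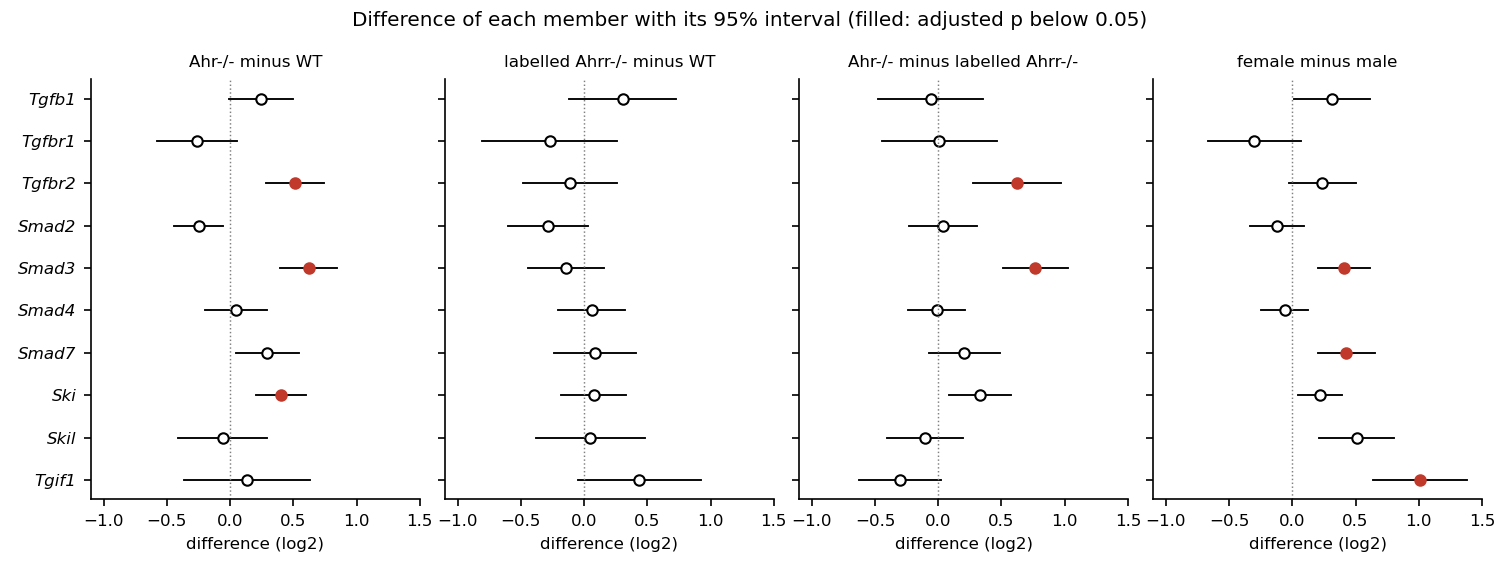
Difference of each of the 10 genes in log2 units for 4 comparisons, with the 95% confidence interval from limma as bars and filled points where the gene was called. *Tgfbr2*, *Smad3* and *Ski* stand to the right of 0 for *Ahr*-/- minus WT, and *Tgif1* has the largest difference between females and males.

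The ligand gene *Tgfb1*, on chromosome 7 (25687002 to 25705077, plus strand, GRCm38), lay between 7.91 and 8.42 in WT (median 8.20), 7.88 and 8.74 in *Ahr*-/- (median 8.46) and 7.71 and 9.17 in the samples labelled *Ahrr*-/- (median 8.56). The groups overlapped, with the highest and the lowest sample of the study both labelled *Ahrr*-/-. Its difference from WT was 0.24 (SE 0.120, adjusted p = 0.237 in limma) in *Ahr*-/- and 0.30 (SE 0.199, adjusted p = 0.690 in limma) in *Ahrr*-/-. With any 1 of the 12 samples left out, the difference for *Ahrr*-/- lay between 0.177 and 0.452. It was 0.551 without *Ahrr*-/- F3, M1 and M3, an alternative chosen after seeing the data. *Tgfb2*, the gene of a second ligand, changed far more. It ran from 14.1 to 62.1 normalized counts in WT (median 35.4) and from 103 to 339 in *Ahr*-/- (median 270), and it rose by 1.73 (SE 0.192, adjusted p = 2.24e-05 in limma). Samples labelled *Ahrr*-/- stayed between 7.31 and 34.4. Even in *Ahr*-/-, *Tgfb2* reached 40.9 normalized counts per kilobase of exon, beside 57.1 for *Tgfb1*. *Tgfb3*, the third ligand gene, had a median of 1.24 counts in WT, too low to test.

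*Tgfbr2*, on chromosome 9, encodes the type II receptor, which binds the ligand and activates its partner. Its values ran from 9.84 to 9.998 in WT (median 9.94), from 10.13 to 10.75 in *Ahr*-/- (median 10.46) and from 9.24 to 10.56 in the samples labelled *Ahrr*-/- (median 9.79). WT samples were tightly grouped, all 6 *Ahr*-/- samples lay above them, and the *Ahrr*-/- group reached from below WT up into the range of *Ahr*-/-. The rise over WT was 0.51 (SE 0.107, adjusted p = 0.00631 in limma), and it stayed called when any 1 of the 12 samples was left out. With all 18 samples in the fit the adjusted p from limma was 0.0615. Against the *Ahrr*-/- labelled samples the difference was 0.63 (SE 0.164, adjusted p = 0.0227 in limma). That call was lost, with an adjusted p of 0.0529 without *Ahr*-/- F2, 0.0617 without *Ahr*-/- M3, 0.0507 without *Ahrr*-/- F3 and 0.0545 without *Ahrr*-/- M3 in limma. Without the 3 samples rich in epithelial and fibroblast markers it was 0.48 (adjusted p = 0.0926 in limma), an alternative chosen after seeing the data. It was also lost without sex in the model (adjusted p = 0.0562 in limma) or without a minimum mean (adjusted p = 0.0778 in limma).

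*Tgfbr1*, for the type I receptor kinase, on chromosome 4 (47353222 to 47414931, plus strand), was not called in any comparison. It lay between 11.51 and 12.75 in WT, 11.60 and 12.43 in *Ahr*-/- and 11.55 and 12.79 in *Ahrr*-/-, so all groups overlapped. The difference between *Ahr*-/- and WT was -0.26 (SE 0.148, adjusted p = 0.306 in limma), opposite in sign to that of *Tgfbr2*. It was -0.3849 without WT F1 and -0.158 without WT F3, the extremes over the 12 samples left out in turn, and was called in none of these fits. Some other receptor genes of the family were scarce, although not those of the activin and BMP branches *Acvr1b* (137.6 normalized counts per kilobase) and *Bmpr2* (80.9). *Tgfbr3*, for betaglycan, *Eng*, for endoglin, and *Acvrl1*, a type I receptor of endothelium, had WT medians of 10.5, 14.2 and 4.88 normalized counts.

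*Smad3*, on chromosome 9, encodes a Smad that the type I receptor phosphorylates and that binds DNA. It lay between 8.39 and 8.84 in WT (median 8.65), 8.87 and 9.54 in *Ahr*-/- (median 9.32) and 7.97 and 8.99 in the samples labelled *Ahrr*-/- (median 8.51). All *Ahr*-/- samples exceeded all WT samples, though the gap between the lowest *Ahr*-/- male and the highest WT female was small. It rose by 0.62 over WT (SE 0.106, adjusted p = 0.00132 in limma). The difference from *Ahrr*-/- was 0.77 (SE 0.121, adjusted p = 0.00102 in limma), and *Ahrr*-/- F1 overlapped the *Ahr*-/- range. Both calls held when any 1 sample was left out, and the second was 0.59 (adjusted p = 0.00951 in limma) without the 3 samples rich in epithelial and fibroblast markers.

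*Smad2*, the other receptor-regulated Smad gene, did not follow *Smad3*. Its range was 9.75 to 10.30 in WT (median 10.01), 9.58 to 9.98 in *Ahr*-/- (median 9.72) and 9.51 to 10.12 in *Ahrr*-/- (median 9.69). WT males M1 and M2 had the highest values of the study, and the groups overlapped. The difference of *Ahr*-/- from WT was -0.25 (SE 0.0919, adjusted p = 0.111 in limma). *Smad4*, for the Smad shared by all branches, had the narrowest range of the 10, with a difference of 0.05 for *Ahr*-/- and 0.06 for *Ahrr*-/- from WT. Its values lay between 8.71 and 9.43 in all 18 samples, and WT F3, the shallowest library, was the lowest. *Smad1* and *Smad5*, which serve the bone morphogenetic protein (BMP) branch, were tested and not called in WT against *Ahr*-/-.

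*Smad7* encodes the inhibitory Smad that the pathway itself induces. It lay between 7.28 and 8.06 in WT (median 7.67), 7.67 and 8.43 in *Ahr*-/- (median 7.95) and 7.37 and 8.10 in *Ahrr*-/- (median 7.84), with wide overlap. *Ahr*-/- differed from WT by 0.29 (SE 0.117, adjusted p = 0.138 in limma), which was not called. *Smad6*, the other inhibitory Smad gene, had a WT median of 6.08 normalized counts and was too low to test.

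*Ski*, on chromosome 4, encodes a corepressor that binds Smad complexes. It lay between 9.48 and 9.90 in WT (median 9.80), 9.91 and 10.44 in *Ahr*-/- (median 10.13) and 9.56 and 10.19 in the samples labelled *Ahrr*-/- (median 9.78). The lowest *Ahr*-/- sample, M2, lay just above the highest WT sample, F3. The rise over WT was 0.40 (SE 0.0930, adjusted p = 0.0120 in limma) and stayed called when any 1 of the 12 samples was left out. Against *Ahrr*-/- the difference of 0.33 was not called (SE 0.113, adjusted p = 0.0617 in limma). It was called without *Ahrr*-/- F2 (adjusted p = 0.0320 in limma), with each sample centred on its median (adjusted p = 0.0494 in limma) and with all 18 samples in the fit (adjusted p = 0.0389 in limma).

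The related corepressor gene *Skil*, on chromosome 3 (31095058 to 31122577, plus strand), was far more abundant and showed no such shift. Its range was 11.36 to 12.46 in WT, 11.46 to 12.42 in *Ahr*-/- and 11.45 to 12.58 in *Ahrr*-/-, and the difference of *Ahr*-/- from WT was -0.06 (SE 0.166, adjusted p = 0.873 in limma). *Tgif1*, a homeobox corepressor gene on chromosome 17 (70844205 to 70853546, minus strand), ranged from 7.30 to 9.03 in WT, 7.73 to 9.54 in *Ahr*-/- and 7.90 to 9.43 in *Ahrr*-/-. That spread within each genotype was the widest of the 10. It separated the sexes within *Ahr*-/- and within *Ahrr*-/-, but not within WT.

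Between the sexes, *Tgif1*, *Smad3* and *Smad7* were higher in females, 3 of 10 beside 351 of 11468 genes or 3.06%, of which 282 were higher in females and 69 in males. *Tgif1* lay between 8.35 and 9.54 in the 9 females (median 9.14) and between 7.30 and 8.89 in the 9 males (median 7.90). Every female exceeded every male within *Ahr*-/- and within *Ahrr*-/-, while among WT samples M1 exceeded F1 and F3. The difference was 1.01 (SE 0.178, adjusted p = 0.00562 in limma, with genotype in the model), and it held when any 1 of the 18 samples was left out. In the 6 WT samples alone it was 0.66 (adjusted p = 0.998 in limma).

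*Smad3* was higher in females by 0.41 (SE 0.0984, adjusted p = 0.0289 in limma), with values of 8.53 to 9.54 in females and 7.97 to 9.17 in males. The call of *Smad3* was lost without WT F2 (0.0563), WT M3 (0.0604), *Ahr*-/- F1 (0.0530), F2 (0.0703), M1 (0.0699) or M2 (0.0624), or *Ahrr*-/- F1 (0.0568), F2 (0.0554) or M3 (0.0594), each an adjusted p from limma. *Smad7* was higher by 0.43 (SE 0.108, adjusted p = 0.0361 in limma), with 7.62 to 8.43 in females and 7.28 to 8.01 in males. Its call was the least stable: it was lost without 13 of the 18 samples in turn, and held only without WT F1, WT M1, WT M3, *Ahrr*-/- F3 or *Ahrr*-/- M1. The adjusted p of *Smad7* from limma then lay between 0.0132 and 0.0834 over all 18 omissions. *Skil* missed the threshold at a difference of 0.51 (SE 0.142, adjusted p = 0.0551 in limma), and was called without WT F1 (adjusted p = 0.0259 in limma), without WT M1 (adjusted p = 0.00482 in limma) or under a stricter minimum mean (adjusted p = 0.0426 in limma). Without any minimum mean, the adjusted p from limma was 0.0525 for *Smad3* and 0.0703 for *Smad7*. Without the 3 samples rich in epithelial and fibroblast markers the difference was 0.3481 for *Smad3* (adjusted p = 0.0535 in limma) and 0.5009 for *Smad7* (adjusted p = 0.0140 in limma). In the 6 WT samples alone it was 0.1884 for *Smad3* and 0.4291 for *Smad7* (adjusted p = 0.998 in limma for both).

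Other genes of the pathway also differed by sex. From a list of 74, 58 had a mean at or above the minimum in both sexes, and 5 of these were higher in females and 0 lower (8.62%, beside 2.96% of all such genes). *Thbs1*, for thrombospondin, which can release the latent ligand, was higher by 1.33 (SE 0.311, adjusted p = 0.0247 in limma). *Thbs1* was also the most abundant pathway gene, at 5289 normalized counts per kilobase of exon. *Cdkn1a* (0.68), *Bhlhe40* (0.64) and *Tgif2* (0.61), a close relative of *Tgif1*, were higher as well. Without the 3 samples rich in epithelial and fibroblast markers, 4 of the 5 were called. *Pmepa1*, not counted here because its mean in females lay below the minimum, was lower in females (difference -0.60, adjusted p = 0.0388 in limma). Of the 10 immediate early genes, 4 were higher in females (*Ier3*, *Atf3*, *Jun* and *Nr4a1*), beside 3.06% of all genes tested. The summed normalized count of all 10 immediate early genes ran from 56582 to 93184 in females and from 41749.7 to 95029.5 in males. This sum was highest in M1 labelled *Ahrr*-/-, and its mean was 72981.7 in females and 56166.1 in males. Of these 10 immediate early genes, 9 had a difference above 0 and 1 below, with a median of 0.5814. Of 10 macrophage and dendritic cell markers with a mean at or above the minimum in both sexes, *H2-Aa* (difference -1.48) and *H2-Ab1* (-1.34) were lower in females, and *Kit*, the 1 mast cell gene tested, was higher (0.94). Of the 11 epithelial genes, 0 were called, but 10 had a difference below 0 and 1 above, with a median of -0.4553. Among 8 eosinophil genes, 0 were called, and 7 had a difference above 0 and 1 below (median 0.12). The part of these in the sex differences was not tested.

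Whether genotype differences depended on sex was tested with an interaction term in limma. It was called for 0 of the 10 and for 0 of 11468 genes (0%). At an unadjusted p under 0.05 it gave 440 genes, 1 of them among the 10, *Smad2*, and no other tool was run for it.

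**Figure D4:**
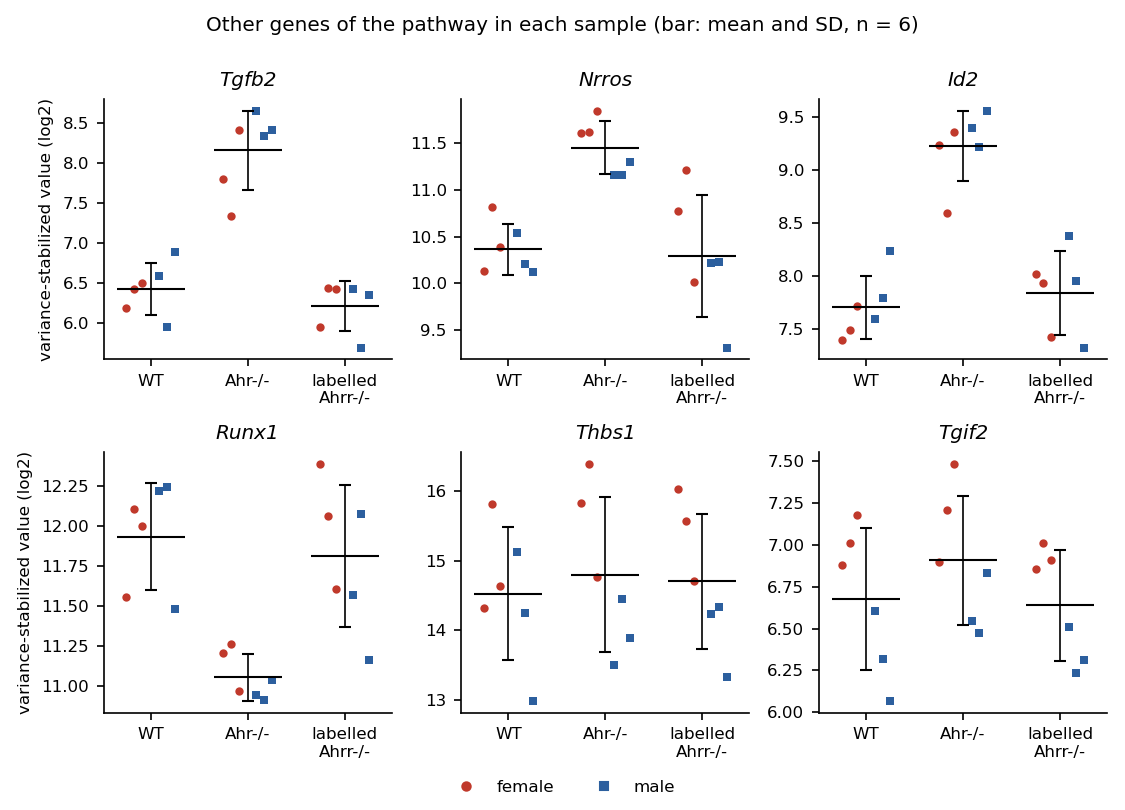
Deposited log2 values of further TGF-beta pathway genes in the 18 samples, by genotype and sex, with bars for the mean and SD of each genotype (n = 6). *Tgfb2*, *Id2* and *Nrros* are higher and *Runx1* is lower in every sample labelled *Ahr*-/- than in any WT sample.

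Beyond *Tgfb2*, the pathway list held 4 further genes called between WT and *Ahr*-/-, so that 3 of the 58 with a mean at or above the minimum in both groups rose and 2 fell. That is 8.62%, close to the 8.53% of all such genes. *Nrros*, for a protein that tethers latent TGF-beta on myeloid cells, lay between 1049 and 1734 normalized counts in WT and between 2224 and 3621 in *Ahr*-/-, and rose by 1.08 (SE 0.126, adjusted p = 3.50e-05 in limma). *Id2*, a transcriptional inhibitor gene that answers to BMP and TGF-beta, rose by 1.52 (SE 0.143, adjusted p = 3.52e-06 in limma). *Runx1*, for a transcription factor that partners Smads, fell, with a difference of -0.88 (SE 0.143, adjusted p = 0.000886 in limma). *Itgb6*, an integrin gene of epithelium whose product activates latent ligand, was low (WT median 46.8 normalized counts) and had a difference of -0.51 (adjusted p = 0.0409 in limma). *Itgav*, for its integrin partner, was not called (0.01), and *Lrrc32* and *Itgb8*, other handlers of latent ligand, had WT medians of 7.71 and 0 normalized counts. *Pmepa1*, *Tgfbi* and *Tgif2* were tested and not called.

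Of the 59 tested between WT and the samples labelled *Ahrr*-/-, 0 were called in limma, beside 0.0779% of all genes. Between *Ahr*-/- and *Ahrr*-/-, 57 had a mean at or above the minimum in both groups, and 4 of these were higher and 4 lower in *Ahr*-/- (14.04%, close to the 14.27% of all such genes). *Tgfb2* (1.94), *Id2* (1.39), *Nrros* (1.16) and *Usp11* (0.39) were the higher ones, and *Bmpr1a* (-0.77), *Runx1* (-0.76), *Cdkn1a* (-0.76) and *Itgb6* (-0.63) the lower ones. In the marker-rich *Ahrr*-/- samples F3, M1 and M3, *Bmpr1a* had 354.19, 506.88 and 521.87 normalized counts, against 108.52 to 239.6 in the other 3 of that group, and *Itgb6* had 102.87, 59.49 and 107.91, against 17.19 to 47.92. Without these 3 samples 5 of the 8 were called, and *Bmpr1a* (-0.2531, adjusted p = 0.4133 in limma), *Itgb6* (-0.3006, adjusted p = 0.3257 in limma) and *Usp11* (0.3689, adjusted p = 0.1745 in limma) were not. These directions rest on the *Ahrr*-/- label, which the *Ahrr* transcript did not check.

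Over the 18 samples, after each genotype's mean was subtracted, the genes most like *Tgfb1* among 11467 were *Dbnl* (Pearson r 0.938), *Laptm5* (0.938) and *Fxyd5* (0.929). For *Tgfbr1* they were *Ptpn22* (0.914), *Fam111a* (0.907) and *Ints6* (0.897), and for *Smad7* they were *Mapkapk3* (0.897), *Zbtb10* (0.885) and *Pgm2* (0.881). These values share libraries, depth and sex, and describe likeness alone.

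Promoter sequence is shown for *Tgfbr2*, *Smad3* and *Ski*, the genes that rose together in *Ahr*-/-. RefSeq entries on GRCm38.p6 were matched for *Tgfb1*, *Tgfbr1*, *Tgfbr2*, *Smad3*, *Ski* and *Tgif1*, 6 of the 10 genes, with 11 start sites. The 250 bases before each start were searched for the AHR core motif GCGTG and its reverse complement CACGC, so on both strands. It was found in 28.2% of the 32851 promoters in the table and at 6 of these 11 start sites, 1 for each gene. Each stretch shown covers 250 to 101 bases before the start and reads 5′ to 3′ on the minus strand. They lie at chr9:116175464-116175613 for *Tgfbr2*, chr9:63758095-63758244 for *Smad3* and chr4:155222636-155222785 for *Ski*, and capitals mark the motif, with 1, 2 and 1 matches. A match describes these letters and shows no binding.
Tgfbr2: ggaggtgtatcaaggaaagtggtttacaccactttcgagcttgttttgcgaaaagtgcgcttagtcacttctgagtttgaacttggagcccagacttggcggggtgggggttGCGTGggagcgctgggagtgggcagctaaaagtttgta
Smad3: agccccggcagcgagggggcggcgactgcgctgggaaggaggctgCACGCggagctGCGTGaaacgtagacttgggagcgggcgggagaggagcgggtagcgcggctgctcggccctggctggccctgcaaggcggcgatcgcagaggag
Ski: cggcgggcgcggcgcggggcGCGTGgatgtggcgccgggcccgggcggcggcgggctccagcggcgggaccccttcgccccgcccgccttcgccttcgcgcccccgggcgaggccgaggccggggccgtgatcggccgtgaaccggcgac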

How the data were processed

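The authors made cDNA from RNA of sorted cells and sequenced single-ended reads. The submitters' processing notes say that the authors used RSEM 1.3.0, STAR 2.5.2, DESeq2 and R 4.0.3 with GRCm38, and the methods name nf-core/rnaseq. The deposited table holds log2 values that the authors had variance-stabilized. They were turned back into counts, and 100% of the values came out whole (tolerance 0.0001). Samples were grouped by their labels. Genes were fitted with limma 3.58.1 in R 4.3.3 with a mean-variance trend, over genes with a mean 1 or more above the table's lowest value, and this was tested on simulated data. Sex was a covariate between genotypes and genotype between sexes. Tables were read in Python 3.11.15 (pandas 2.3.3, numpy 2.4.6) and drawn with matplotlib 3.10.9. Exon lengths and promoters came from GENCODE and RefSeq models of GRCm38. Named were the 10 genes, fixed pathway genes, those called (at most 12 per comparison), label checks and the 3 genes most like *Tgfb1*, *Tgfbr1* and *Smad7*. The genes and lists were chosen with earlier results of these data known. One gene of the pathway list is counted but not reported here. Marker genes named beside the count of their list were chosen after their values were seen. Alternatives covered the minimum mean, centring, quantile normalization, trend and robust settings, voom, log2(normalized count + 1), covariates, the replicate block, the samples fitted and each sample left out.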

Additional observations from a re-analysis of the deposited data

Results flagged for a closer look

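*Smad4* was 8.71 in the WT sample F3, where the other 5 WT samples lay between 9.16 and 9.28, so this sample stood far from the rest of its group. WT F3 also had the lowest total count of the 18, and the most genes with reads (20244).

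*Nqo1*, an AHR target gene, was 6.92 in sample M2 labelled *Ahr*-/-, above the other 5 samples of that group, which lay between 6.28 and 6.49. Chance alone marks about 1 in 20 groups in this way, and 2 of the 45 groups examined were marked.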

How the results depend on the processing

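Of 986 differences of single genes recomputed under another setting, 908 kept their direction and their side of the threshold, 36 changed sign, 36 were no longer called and 6 became called. The cause was not tested where none is given. *Tgfbr2*, *Smad3* and *Ski* stayed called between WT and *Ahr*-/- under each setting and each sample left out, except *Tgfbr2* with all 18 samples in the fit. Over all genes, 623 were called there with no minimum mean, where more genes are tested, and 553 with all 18 samples in the fit. Leaving out 1 sample gave 623 (without *Ahr*-/- F1) to 1124 called genes. *Smad4* then ranged from -0.04 (without WT F3) to 0.0969 and *Skil* from -0.1593 to 0.0852.

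Between WT and the samples labelled *Ahrr*-/-, where 9 genes were called, 4 were called with no minimum mean, centring, log2(normalized count + 1) or voom, 5 with a stricter minimum or quantile normalization, and 14 with all 18 samples. Leaving out 1 sample gave 4 to 25. *Smad4* ranged from -0.0277 to 0.0973, *Smad7* from -0.0064 to 0.1501 and *Skil* from -0.0367 to 0.2078. Without the 3 *Ahrr*-/- samples rich in epithelial and fibroblast markers, an alternative chosen after seeing the data, 4 genes were called, and *Tgfbr1* (0.1488), *Tgfbr2* (0.0858) and *Smad3* (0.0684) changed sign.

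Between *Ahr*-/- and *Ahrr*-/- (2 of the 10 and 1708 genes called), 1 and 713 were called with no minimum mean, 1 and 994 with no sex covariate, and 1 and 626 without the 3 marker-rich samples, where fewer samples were fitted. A stricter minimum gave 828 genes. Centring changed the sign of *Tgfb1* (0.0034) and *Smad4* (0.0518), and *Tgfbr1* was -0.0226 after quantile normalization, -0.0027 with voom and, like *Smad2* (-0.1565), negative (-0.4073) without the 3 samples. Leaving out 1 sample gave 1 to 3 of the 10 and 818 (without *Ahr*-/- M3) to 2574 genes (without *Ahrr*-/- F1). *Tgfb1* ranged from -0.1886 to 0.0482, *Tgfbr1* from -0.121 to 0.1916, *Smad2* from -0.0116 to 0.1197 and *Smad4* from -0.0605 to 0.0302.

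Between the sexes (3 of the 10 and 351 genes called), 1 and 163 were called with no minimum mean and 0 and 5 in WT alone, with 3 samples a sex, where *Tgfbr2* was -0.0772. Leaving out 1 sample gave 1 to 4 of the 10 and 142 (without *Ahr*-/- M1) to 733 genes (without WT F1). Ranked per kilobase of coding sequence, 4 of the 10 genes kept their place. *Smad7* fell below the stricter minimum and has no value there.

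Sample numbers recur across genotypes. The labels do not say whether the numbers pair the samples. Deviations of same-numbered samples correlated between -0.592 and 0.473. Each deviation is from a mean of only 3 samples, so these correlations cannot decide it. With the number as a replicate block, 3, 0 and 2 of the 10 genes and 918, 4 and 1946 genes in all were called for WT against *Ahr*-/-, WT against *Ahrr*-/- and *Ahr*-/- against *Ahrr*-/-.

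WT F3 had the lowest total count of the 18 and the most genes with reads (20244), followed by *Ahr*-/- F3 (19694). Genes such as *Tgfb3* or *Smad6* lay below the minimum mean and were not tested. The labels give no batch, litter or cage, and a count over a gene gives neither protein nor Smad phosphorylation. With 6 samples a genotype, a gene that was not called is not shown to be equal.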
